A study of Mus musculus with 20 samples.

Results

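The transcripts described here are the splice forms that the GENCODE M21 annotation of mm10 marks as targets of nonsense-mediated decay, measured in the abdominal aorta of mice with and without Rab22a. Members were the Ensembl transcripts in the deposited tables whose transcript type is nonsense_mediated_decay, leaving out the one that belongs to Rab22a itself. They numbered 5312 of 109913 annotated transcripts, in 3624 genes, and are called decay transcripts in what follows. No expression value entered the choice. All libraries came from C57BL/6 mice and were labelled Rab22 WT or Rab22a KO, with saline or with angiotensin II (AngII) at 500 ng/kg/min for 14 days, in 4 groups of 5 libraries. The labels give neither the construct of the knockout nor the animals' age, and they do not state that each library is a separate animal, so p-values measure the spread between these libraries, which may be technical in part. Wild-type saline, wild-type AngII, knockout saline and knockout AngII name the groups below, and values are listed in the order of replicates 1 to 5.

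Nonsense-mediated decay degrades messenger RNAs on which a ribosome stops well upstream of the last exon junction. Splicing leaves an exon junction complex on each junction, and a complex that remains downstream of the stopping ribosome recruits UPF1, UPF2 and UPF3 proteins, after which the kinase SMG1 and factors such as SMG5 and SMG6 lead the RNA to degradation. Many genes of splicing regulators make such forms through an extra exon or a kept intron and limit their own protein in that way, so the level of a decay transcript in steady-state RNA reflects both how often it is spliced and how fast it is destroyed. Rab22a is a small GTPase of early and recycling endosomes, and AngII is the pressor peptide used to model hypertensive aortic remodelling and aneurysm.

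The labels were checked against Rab22a first. Its coding transcript ENSMUST00000029024 was at 1.87 to 8.62 FPKM (fragments per kilobase of transcript, scaled to the library's depth) in the 10 wild-type libraries and at 0 to 0.00563 FPKM in the 10 knockout libraries. Its own decay transcript ENSMUST00000142820, which is no member here, was at 0.162 to 3.61 FPKM in wild type and at 7.43 to 11.1 FPKM in the knockout. Read totals recovered from the steps of the FPKM values ran from 68748100 to 77391300 per library. Smooth muscle markers averaged 6.91 to 8.08 on the log2(FPKM + 1) scale in wild type and 5.94 to 7.68 in the knockout. Knockout saline 2, 4 and 5 and knockout AngII 1 and 2 stood apart, since these 5 libraries held little lymphocyte RNA. Over the list of 12 B and plasma cell markers their summed level was 6.94 to 37.4 FPKM, against 131 to 788 FPKM in wild type and 136 to 861 FPKM in the other 5 knockout libraries, and over 14 T and NK cell markers it was 7.57 to 28.0 FPKM against 45.5 to 322 FPKM and 60.2 to 562 FPKM. Of the defining markers Fcer2a, Cd8a and Zap70 were at 0 in some knockout library and none was at 0 in a wild-type one. Macrophage markers were low in the same 5 libraries too, averaging 3.54 to 4.09 on the log2(FPKM + 1) scale. They averaged 4.25 to 5.81 in wild type and 4.54 to 5.76 in the other 5 knockout libraries. The term low-lymphocyte below only names the 5 libraries, which differ in more than lymphocytes. Other marker lists varied within groups too. On the same scale, skeletal muscle markers averaged 0.957 to 7.18 in wild-type saline and 0.785 to 6.69 in knockout AngII. Neuron and Schwann markers averaged 1.64 to 6.01 in knockout AngII. The lowest smooth muscle average, 5.94, was that of knockout saline 1. White adipocyte markers, Lpl among them, averaged 7.50 to 8.48 over all libraries. In bulk RNA, fewer cells of a type and less RNA per cell cannot be told apart.

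Of the 5311 decay transcripts with an annotated stop codon, 5282 (99.5%) had it 50 bases or more before their last exon junction, the distance usually taken as the trigger of decay. The median distance was 339 bases, with quartiles at 160 and 738.5 bases, and a median of 3 junctions lay behind the stop. In 1266 transcripts a single junction followed it. The transcripts were shorter than coding ones, with a median length of 1314 bases against 1989.5 bases, and in 28.0% the annotated coding region lacked its start. The stop codon was TGA in 57.2%, TAA in 23.1% and TAG in 19.8%, while 3513 coding reference transcripts of the same genes used TGA in 52.6%, TAA in 23.8% and TAG in 23.6%.

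The route to the early stop was read by comparing each decay transcript with a coding transcript of its gene, which could be done for 5192. Another splice site or transcript end set 1604 (30.9%) apart, an extra exon 1486 (28.6%) and a skipped exon 1340 (25.8%). Several such differences were found in 352 (6.78%), a kept intron in 176 (3.39%), and 234 (4.51%) kept the reference stop codon but had a junction spliced behind it. Of the transcripts with an extra exon, 1168 (78.6%) met their stop inside it, and the added length had a median of 123 bases and was no multiple of 3 in 68.0%. The skipped length, summed over the skipped exons of a transcript, had a median of 125 bases and was no multiple of 3 in 1188 of 1340 (88.7%). Whether the added or skipped exons lie in the coding region was not checked for these counts.

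For the transcripts on which the comparisons below turn, the bases around the early stop are given from the mm10 genome. Each line runs 5′ to 3′ along the spliced transcript, opens with 15 bases shared with the coding transcript, goes on over the bases that follow the departure from it, and ends with the early stop codon in capitals.
Clk1: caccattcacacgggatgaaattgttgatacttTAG
Rbmx: cgtatgagagttatggtTGA
Ifi35: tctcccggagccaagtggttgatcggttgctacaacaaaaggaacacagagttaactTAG
Map4k1: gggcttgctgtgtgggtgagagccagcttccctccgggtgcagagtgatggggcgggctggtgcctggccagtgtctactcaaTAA
Nupr1: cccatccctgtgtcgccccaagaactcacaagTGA
Lgals1: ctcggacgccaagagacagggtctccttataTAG
Ankrd13c: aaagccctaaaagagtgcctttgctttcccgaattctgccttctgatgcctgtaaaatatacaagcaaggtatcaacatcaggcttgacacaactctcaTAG
Ddx5: cctccagagggctaggtTAG

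The Clk1 stretch spans chr1:58419713-58421097 on the minus strand, where the transcript ENSMUST00000148330 skips an exon and reads 21 bases, stop codon included, in the new frame. Rbmx (ENSMUST00000140384, chrX:57385217-57388075, minus strand) and Lgals1 (ENSMUST00000229159, chr15:78928035-78928583, plus strand) run into an extra exon and stop after 5 and 19 bases. Map4k1 (ENSMUST00000207185, chr7:29000008-29000093, plus strand) and Nupr1 (ENSMUST00000187609, chr7:126625166-126625337, minus strand) use another splice site and go on for 71 and 20 bases. Ddx5 (ENSMUST00000133426, chr11:106783954-106783973, minus strand) keeps an intron and stops after 5 bases. Ankrd13c (ENSMUST00000199727, chr3:157972303-157988659, plus strand) skips an exon and reads on for 87 bases. Ifi35 (ENSMUST00000131024, chr11:101456650-101457460, plus strand) differs in several places and reads on for 45 bases.

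How well a decay transcript can be told from its neighbours depends on the sequence it has to itself. No base of their own was found in 2570 (48.4%), and 633 (11.9%) had neither a base nor a junction absent from every other transcript of the gene. Other genes and unannotated models were not part of this comparison. For such transcripts the deposited value is a division of shared reads. Clk1 has neither, Nupr1 has a junction only, and Ifi35, Rbmx, Ddx5, Lgals1, Map4k1 and Ankrd13c have bases of their own.

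Most decay transcripts were scarce. Their mean over the 20 libraries had a median of 0.125 FPKM, 2404 averaged under 0.1 FPKM, 780 reached 1 FPKM and 63 reached 10 FPKM. All libraries held a value above 0 for 1122 of them, and 1184 were above 0 in fewer than 5. A filter of 1 FPKM in at least 5 libraries left 1009 in 882 genes for tests of level, with a median of 244.8 recovered reads per library, 220 of them averaging under 100 reads. Tests of share, which is the transcript's percent of the summed FPKM of its gene, used genes averaging at least 2 FPKM and transcripts averaging at least 1% of them. That left 2703 decay transcripts, of which 1757 averaged under 100 reads.

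The share was small in most genes. Over the 2703 its median was 4.59%, next to 3.51% for transcripts typed retained_intron, 3.19% for those typed processed_transcript and 20.1% for coding ones passing the same filter. A mean share of 1 to 5% was found in 1417, 5 to 10% in 516, 10 to 25% in 494, 25 to 50% in 217, and 50% or more in 59. Transcripts that keep an intron had a median share of 9.17% and those that keep the reference stop had one of 8.82%, against 5.28% for another splice site, 4.25% for a skipped exon and 3.82% for an extra exon.

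**Figure D1:**
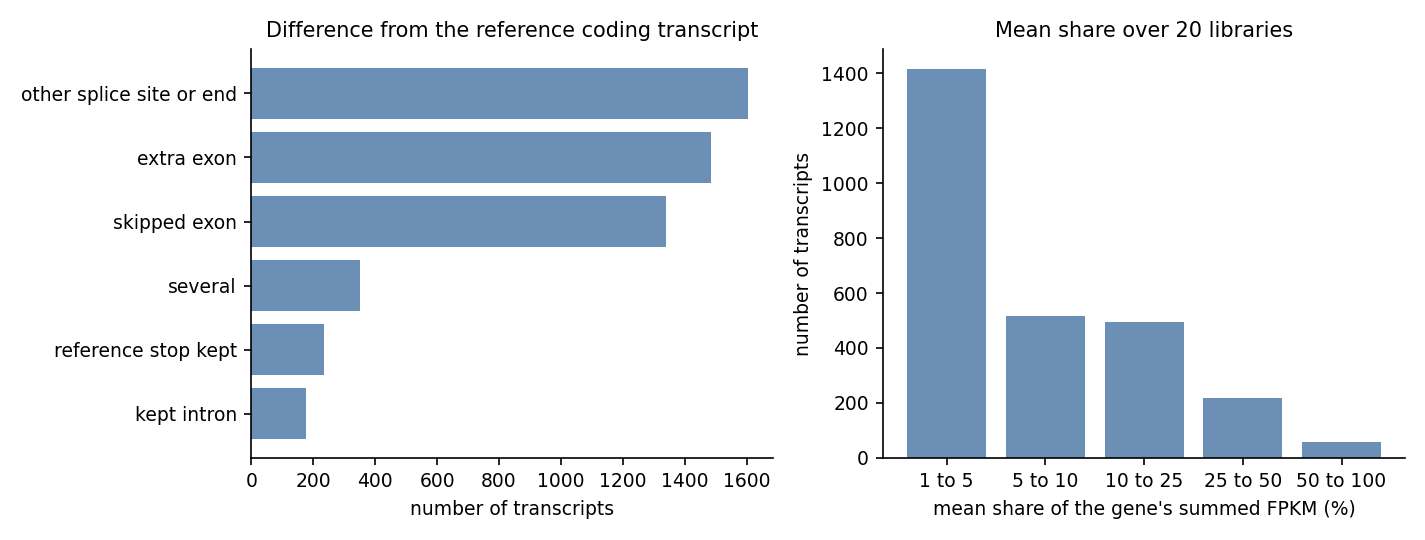
Left, number of decay transcripts by how they differ from a coding transcript of the gene. Right, number of the 2703 decay transcripts of the share test by mean percent of their gene's FPKM; 1417 lie between 1 and 5% and 59 at 50% or more.

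At the top of the list the annotated decay form was the main form of its gene. Glo1, which encodes the glyoxalase that detoxifies methylglyoxal, had 95.3% of its FPKM on ENSMUST00000024823, between 92.4 and 98.1% in every library. Lpl, the lipase that hydrolyses the triglycerides of lipoproteins, had 90.1% on ENSMUST00000168401, which keeps the coding stop and adds a junction 61 bases behind it. Cbx1, a heterochromatin protein, had 88.8% (67.9 to 96.1%), and Hyi, a hydroxypyruvate isomerase, had 74.9% (58.2 to 92.5%). Micall1, a scaffold of recycling endosomes, averaged 72.1% with knockout saline 1 and 4 at 0 and the others at 49.7 to 91.3%.

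By level, the highest means were Lpl at 169 FPKM, Chpt1, a cholinephosphotransferase of phosphatidylcholine synthesis, at 109 FPKM, and the ribosomal protein genes Rpl13a at 100, Rpl3 at 86.9 and Rpsa at 65.7 FPKM. Tmem123, a membrane mucin-like protein, followed at 51.6 FPKM and Glo1 at 38.1 FPKM. In Rpl13a, 89.3% of the transcript's bases also lie in Gm45713 or Mir5121 on the same strand, so its value is uncertain.

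Several of these levels jumped between libraries of one group. The Lpl transcript was at 179, 12.6, 151, 202 and 158 FPKM in wild-type saline and at 0.028, 133, 51.2, 161 and 396 FPKM in knockout AngII. In the library at 0.028 the gene's sum was 237 FPKM and the coding transcript ENSMUST00000015712 held 236 FPKM of it. Tmem123 had a share of 0.022 to 0.513% in wild-type AngII 1 and 2 and knockout saline 2 and 4, and of 68.1 to 85.7% in the other 16 libraries. Neither the genotype nor the treatment divides the libraries at these jumps.

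Summed over all members, the part of host gene FPKM held by decay transcripts overlapped between all groups. In wild-type saline they made up 7.42, 6.34, 7.68, 7.0 and 7.20% of the summed FPKM of genes that have one. In wild-type AngII the values were 6.66, 7.25, 7.17, 6.80 and 7.40%, and in knockout saline 7.70, 6.65, 7.58, 6.56 and 7.16%. Knockout AngII ran lower on average at 6.13, 5.58, 6.83, 7.04 and 7.47%. The group means were 7.13 ± 0.506, 7.06 ± 0.310, 7.13 ± 0.521 and 6.61 ± 0.752% (SD, n = 5 each). The exact two-sided permutation p was 0.794 for AngII against saline in wild type, 0.246 for the same in the knockout, 0.286 for knockout against wild type under AngII, and 0.373 for genotype over both treatments. Without the 5 low-lymphocyte libraries the knockout minus wild-type difference went from -0.446 to +0.0570 percentage points under AngII and from -0.222 to +0.284 over both treatments.

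The number of decay transcripts reaching 1 FPKM was 787, 697, 808, 784 and 678 in wild-type saline and 723, 737, 742, 727 and 808 in wild-type AngII. It was 769, 623, 803, 626 and 658 in knockout saline and 613, 616, 738, 733 and 715 in knockout AngII. The knockout minus wild-type difference was -59.7, with an exact permutation p of 0.0425 within treatments, and 0.643 after Benjamini-Hochberg adjustment over the 54 tests of such library measures. The 5 libraries low in lymphocyte markers held 613 to 658 of these transcripts, against 678 to 808 in wild type and 715 to 803 in the other knockout libraries. Without those 5 the difference was +8.23. Models of any type, annotated or not, that were above 0 numbered 74093 to 79977 in those 5 libraries. The other knockout libraries had 79350 to 83057 and wild type 81734 to 92523. No count of all transcripts at 1 FPKM stands beside these, so the difference was not shown to be particular to decay transcripts.

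Against retained_intron transcripts, another class of unproductive RNA, the summed level of decay transcripts gave a mean log2 ratio of -0.23 in wild-type saline, -0.29 in wild-type AngII, -0.07 in knockout saline and -0.32 in knockout AngII. The ratio was 0.25 lower with AngII in the knockout, with an exact permutation p of 0.0238 and an adjusted one of 0.643. None of the 54 tests passed after adjustment. The smallest p that 5 libraries against 5 allow is 0.00794.

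**Figure D2:**
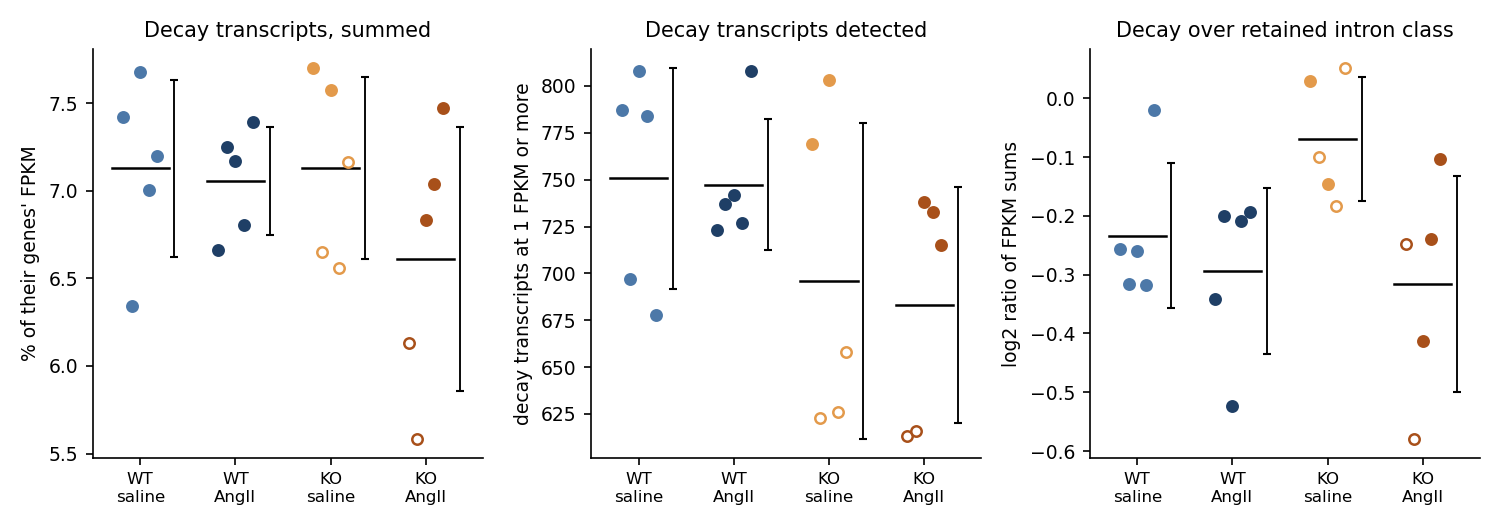
Each point is a library, in the 4 groups; horizontal lines are means and bars are SDs. The panels plot the percent of host gene FPKM on decay transcripts, the number of them at 1 FPKM or more, and the log2 ratio of their sum to that of retained_intron transcripts; open circles are the 5 knockout libraries lowest in B cell markers, which lie at 613 to 658 in the middle panel.

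Between genotypes a small set of decay transcripts was lower in the knockout, led by Ifi35, Clk1, Rbmx, Map4k1, Nupr1 and Lgals1, and 1 was higher, that of Ankrd13c. Over both treatments limma called 17 of the 1009 tested, 16 lower and 1 higher, at an adjusted p under 0.05. Of all 25362 transcripts tested, 678 or 2.67% were called (0.434% higher and 2.24% lower). The 17 are 1.68% of the decay transcripts tested, below that background. Retained_intron transcripts were called in 5.97%, processed_transcript ones in 3.42% and coding ones in 2.0%. Among those that passed the filter, the median difference of the decay transcripts was -0.12 on the log2(FPKM + 1) scale and that of all transcripts -0.08, with 64.2% and 61.0% of them lower. At an unadjusted p under 0.05 there were 146 decay transcripts, and limma-voom called 11. Leaving out 1 library moved the 17 to 10 without wild-type AngII 2, to 11 without wild-type saline 1 or knockout AngII 1, and to 28 without knockout saline 3. After quantile normalization 634 transcripts were called, 336 of them higher, in place of 110 higher of 678, and after scaling to annotated non-mitochondrial FPKM 413 were called, 158 of them higher, so the balance of directions over all transcripts depends on the scaling. Of the 17, quantile normalization left 11 called, scaling to annotated non-mitochondrial FPKM 9 and limma-voom on the recovered reads 11. Lymphocyte marker levels as covariates left 11, and leaving out the 5 libraries low in those markers left 2. All 17 kept their sign each time. These fits reuse the libraries that chose the 17, so the kept signs are no separate support.

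Ifi35, an interferon-induced protein, had the decay transcript with the clearest division. In wild-type saline it was at 3.82, 3.41, 3.10, 3.18 and 2.93 FPKM and in wild-type AngII at 4.75, 3.72, 3.31, 3.90 and 3.81 FPKM. In knockout saline it was at 2.01, 0.471, 2.70, 0.424 and 0.877 FPKM and in knockout AngII at 0.535, 0.483, 1.49, 1.19 and 1.2 FPKM. Every knockout library lay below every wild-type library, which held for no other of the 17. Such divisions were not counted over all transcripts. The transcript fell by 1.17 ± 0.167 (SE) on the log2 scale (limma, adjusted p = 0.00195), while the summed FPKM of the gene differed by -0.21 (adjusted p = 0.425). Its share of the gene went from 11.9 to 17.5% in wild type to 2.27 to 9.24% in the knockout, a fall by 9.78 percentage points (adjusted p = 0.00358). Knockout libraries low in lymphocyte markers were at 0.424 to 0.877 FPKM and the other 5 at 1.19 to 2.70 FPKM. Without the former the difference in level was -0.72 and was still called, while the call of the share was lost, as it was with lymphocyte covariates.

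Clk1 encodes a kinase that phosphorylates SR splicing factors, and the decay form skips an exon of the kinase gene. Its level was 21.8, 13.7, 19.9, 17.3 and 10.4 FPKM in wild-type saline and 13.0, 15.1, 16, 12.3 and 15 FPKM in wild-type AngII. It was 5.09, 5.64, 11.6, 4.16 and 6.06 FPKM in knockout saline and 4.28, 4.78, 9.93, 8.08 and 6.94 FPKM in knockout AngII. Of the 10 knockout libraries 9 lay below the lowest wild-type one, and knockout saline 3 lay among the wild-type values. The transcript fell by 1.14 ± 0.173 (limma, adjusted p = 0.00273). The gene as a whole fell by 0.97 (adjusted p = 0.0044), and the share of the decay form, which averaged 37.2, 31.6, 31.8 and 25.9% in the 4 groups, was not called. The low-lymphocyte libraries were at 4.16 to 6.06 FPKM and the other knockout libraries at 5.09 to 11.6 FPKM. Without the former the difference was -0.84 and was no longer called.

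Rbmx, an X-linked hnRNP that binds pre-mRNA, had most of its annotated FPKM on the decay form, with shares averaging 80.3 ± 7.95, 86.4 ± 2.31, 76.3 ± 4.69 and 75.2 ± 5.47% in the 4 groups (SD, n = 5 each). The form was at 5.69, 3.61, 5.99, 5.81 and 3.15 FPKM in wild-type saline and 5.26, 5.31, 4.94, 4.87 and 7.06 FPKM in wild-type AngII. It was at 2.29, 1.31, 3.62, 1.84 and 1.89 FPKM in knockout saline and 1.31, 2.33, 3.31, 2.78 and 2.44 FPKM in knockout AngII. Knockout saline 3 and knockout AngII 3 reached the lower wild-type values and the other 8 lay below them. Transcript and gene fell together, by 0.91 ± 0.150 and 0.85 (limma, adjusted p = 0.0044 and 0.00564). Without the low-lymphocyte libraries, which were at 1.31 to 2.33 FPKM, the difference was -0.65 and the call was lost.

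Ddx5, an RNA helicase of splicing and transcription, was called through its kept-intron form. Wild-type saline had 30, 25, 43, 37.1 and 15.3 FPKM and wild-type AngII 27.8, 23.9, 34.4, 36.8 and 28.7 FPKM. Knockout saline had 27.6, 11.8, 22.2, 15.7 and 9.34 FPKM and knockout AngII 14.6, 11.8, 21.2, 15 and 19.1 FPKM. All 10 knockout libraries were below the wild-type median, though the ranges overlapped. The difference was -0.82 ± 0.197 (limma, adjusted p = 0.0308), with the gene at -0.32 (adjusted p = 0.728). Its share moved between 8.30 and 68.5% among libraries. The low-lymphocyte libraries were at 9.34 to 15.7 FPKM and the other knockout libraries at 15 to 27.6 FPKM. The call was lost without the former (-0.44), in limma-voom, with lymphocyte covariates and after scaling to annotated non-mitochondrial FPKM, and kept after quantile normalization.

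**Figure D3:**
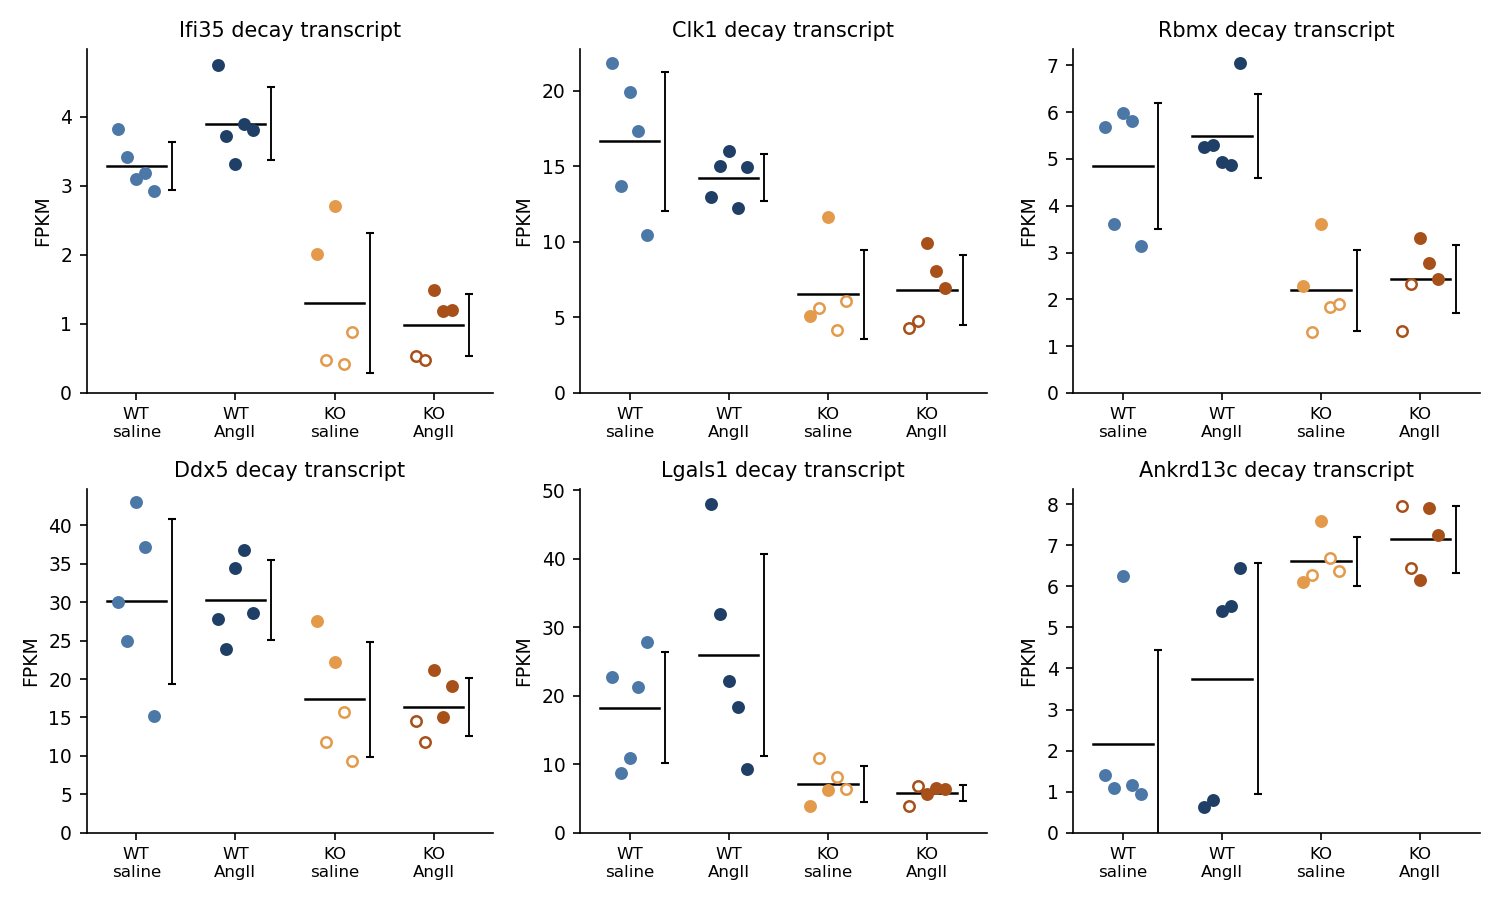
FPKM of the decay transcripts of Ifi35, Clk1, Rbmx, Ddx5, Lgals1 and Ankrd13c, one point per library in 4 groups, with the mean as a line and the SD as a bar; open circles are the 5 knockout libraries lowest in B cell markers. Ifi35 divides the genotypes without overlap, at 2.93 to 4.75 FPKM in wild type and 0.424 to 2.70 FPKM in the knockout.

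Map4k1 encodes a kinase of lymphocyte receptor signalling. Its decay form was at 1.99, 0.0152, 0.0245, 0.202 and 0.148 FPKM in wild-type saline and 2.14, 7.80, 5.53, 1.98 and 7.76 FPKM in wild-type AngII. Knockout saline had 0.246, 0, 0.00964, 0 and 0 FPKM and knockout AngII 0.0144, 0, 0.00484, 0 and 0 FPKM. The wild-type AngII libraries were above all others except for wild-type saline 1, which reached the lower ones. The form reached 1 FPKM only in wild-type AngII and in wild-type saline 1, so it passed the filter through wild type alone. Its p-values are not independent of that filter. The difference between genotypes was -1.39 ± 0.225 over both treatments and -2.43 ± 0.318 under AngII (limma, adjusted p = 0.00363 and 0.004). The gene's own differences, -1.21 and -1.62, were not called (adjusted p = 0.265 and 0.333). Both transcript calls were lost without the low-lymphocyte libraries and in limma-voom.

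The share of the Map4k1 form was 27.4, 48.8, 40.1, 16.5 and 29.2% in wild-type AngII and 13.1, 0.161, 0.147, 0.639 and 5.56% in wild-type saline. In knockout saline it was 0.653, 0, 0.0328, 0 and 0% and in knockout AngII 2.24, 0, 0.0529, 0 and 0%. The gene itself was at 29.4 FPKM in knockout saline 3 and at 13.8 FPKM in knockout AngII 4, so libraries with almost none of the decay form could have the gene within the wild-type range. Under AngII the share fell by 32.0 percentage points in the knockout (limma, adjusted p = 0.005), and over both treatments by 17.9 points (adjusted p = 0.0378). Lymphocyte marker covariates ended both calls, and 14 of the 20 fits that leave out 1 library ended the second. In the test of share too, the form passed the filter through wild type.

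Nupr1, a small stress-induced chromatin protein, had a decay form that was nearly missing from 1 group. It was at 19.8, 21.1, 9.84, 9.28 and 14.3 FPKM in wild-type saline and 29.6, 31.8, 13.9, 14.3 and 19.6 FPKM in wild-type AngII. In knockout saline it was at 3.85 FPKM in library 1 and at 0 in the other 4, and in knockout AngII at 13.8, 33.8, 8.75, 16.9 and 23.2 FPKM. The gene's sum was not at 0 in those 4 libraries: knockout saline had 25.8, 58.0, 35.9, 50.1 and 35.8 FPKM against 56.6 ± 9.60 in wild-type saline (SD, n = 5). Under saline the knockout was 3.46 ± 0.434 lower on the log2 scale (limma, adjusted p = 0.00197), and over both treatments 1.84 ± 0.307 lower (adjusted p = 0.00468), while the gene differed by -0.49 and -0.12 (adjusted p = 0.723 and 0.77). Under AngII the genotypes overlapped and the form was not called, so the value over both treatments rests on saline. The difference of differences was +3.24 ± 0.613 (limma, adjusted p = 0.412). The form is told apart by 1 junction alone, and a listed 0 can be a division of shared reads that gave it none.

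Lgals1 encodes galectin-1, a secreted lectin abundant in smooth muscle. The decay form, which carries an extra exon, was at 22.7, 8.69, 10.9, 21.2 and 27.8 FPKM in wild-type saline and 47.9, 32.0, 22.2, 18.3 and 9.28 FPKM in wild-type AngII. It was at 3.89, 10.9, 6.22, 8.15 and 6.40 FPKM in knockout saline and 3.88, 6.80, 5.69, 6.53 and 6.33 FPKM in knockout AngII. Only knockout saline 2 reached into the wild-type range. The transcript fell by 1.5 ± 0.260 over both treatments (limma, adjusted p = 0.00625). It made up 3.55 and 4.09% of the gene in the wild-type groups and 1.93 and 1.35% in the knockout groups, and the gene, at 504, 615, 367 and 444 FPKM in the 4 groups, was not called.

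Ankrd13c, an ankyrin repeat protein of the endoplasmic reticulum that binds receptors, was the one decay transcript called higher. It was at 1.40, 1.10, 6.24, 1.17 and 0.941 FPKM in wild-type saline and 0.626, 0.786, 5.39, 5.52 and 6.44 FPKM in wild-type AngII. In knockout saline it was at 6.09, 6.29, 7.60, 6.70 and 6.37 FPKM and in knockout AngII at 7.95, 6.44, 6.16, 7.91 and 7.24 FPKM. Wild-type saline 3 and wild-type AngII 3, 4 and 5 lay near the lower edge of the knockout range and the other 6 far below it. The difference was +1.26 ± 0.293 (limma, adjusted p = 0.0279), with the gene at +0.25 (adjusted p = 0.0647). In the 6 low libraries the share was 6.63 to 11.3%, and in the 4 high ones 44.7 to 49.9%. The call was lost without the low-lymphocyte libraries although the difference there was +1.28.

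The other called decay transcripts over both treatments fell by less than 1 on the log2 scale. Those of 0610037L13Rik (-0.74), Gm21988 (-0.57) and Spr (-0.35), the last a sepiapterin reductase of tetrahydrobiopterin synthesis, come from the same naming rule. Hnrnpdl (-0.58), Snrpb (-0.36), Rabggtb (-0.67), Tmem39b (-0.63), Tbrg4 (-0.61) and Gm21981 (-0.53) were chosen after their values were seen, as was Ankrd13c above, because they complete the 17. Hnrnpdl is an hnRNP protein, Snrpb a core snRNP protein and Rabggtb the catalytic subunit of the transferase that attaches geranylgeranyl groups to Rab proteins. The Rabggtb form averaged 1.46 and 1.57 FPKM in the wild-type groups and 0.374 and 0.784 FPKM in the knockout groups, with the gene at -0.02. The forms of Rabggtb, Tmem39b and Tbrg4 met the filter of 1 FPKM in 5 libraries only through wild type. For Gm21988, 87.1% of the bases lie in 0610010K14Rik or Rnasek, and for Gm21981 72.8% lie in Prickle4 or Tomm6, all on the same strand, so those values are uncertain.

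Most decay transcripts differed in the same direction as their gene, whose sum includes them. Of the 1009 tested, 737 (73.0%) had the sign of the gene's difference between genotypes, and of the 79 in genes that were themselves called (4.15% of the 15010 genes tested), 75 did: 70 of 74 in genes called lower and 5 of 5 in genes called higher. The host gene was called for 7 of the 17, Hnrnpdl, 0610037L13Rik, Rbmx, Gm21981, Snrpb, Clk1 and Gm21988, and not for the other 10. Gm21981 has no other transcript in the tables.

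**Figure D4:**
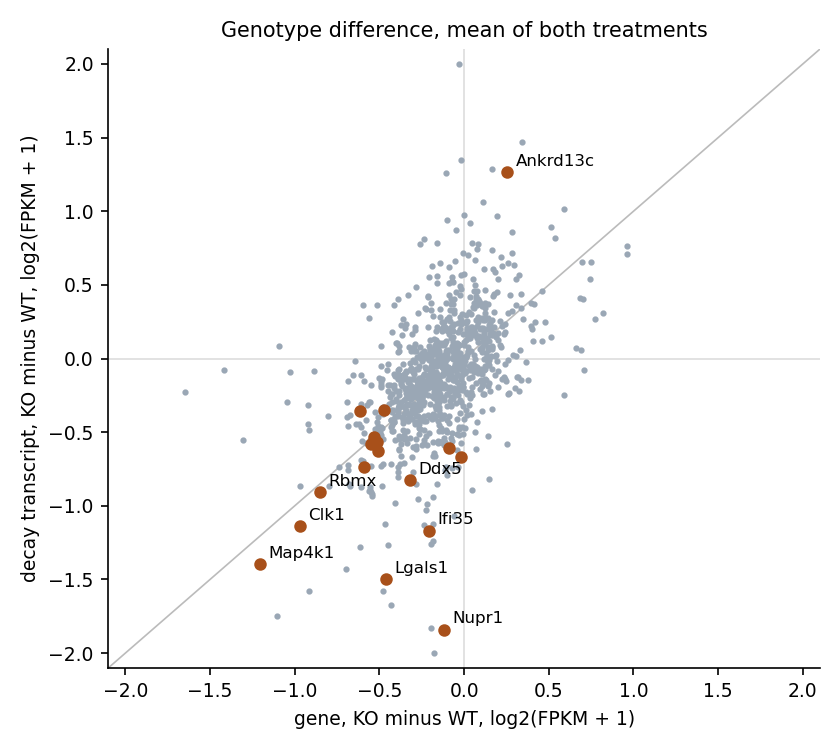
Difference between knockout and wild type over both treatments, log2(FPKM + 1), of each of the 1009 decay transcripts tested (vertical axis) against that of its gene's summed FPKM (horizontal axis). The 17 called are in brown and the diagonal marks equal differences; 737 of the 1009 share the sign of their gene.

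By what sets the transcript apart within its gene, 15 of the 17 were among the 394 tested with bases of their own. Bases shared with other genes count as own here, so Gm21981 and Gm21988 are among the 15 despite the overlaps given above. One was among 411 told apart by a junction only (Nupr1) and one among 204 with neither (Clk1). The junction-only transcripts were at 0 in some library in 62.0% of cases, those with own bases in 27.4% and those with neither in 39.7%. By structure, calls fell on 4 of 208 with an extra exon, 2 of 57 with a kept intron, 2 of 234 with a skipped exon, 2 of 392 with another splice site, 3 of 66 that keep the reference stop, 2 of 34 with several differences and 2 of 18 without a coding transcript for comparison. Of all transcripts 2.67% were called, but they were not sorted into these classes, so the classes have no background of their own.

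Lymphocyte levels and the 17 calls were set side by side. Without the 5 low libraries 6 decay transcripts were called, among them Ifi35 and Gm21981 of the 17, in a comparison with 5 knockout libraries in place of 10. With lymphocyte marker levels as covariates 24 were called, 11 of the 17 among them, including Ifi35, Clk1, Rbmx, Nupr1, Map4k1 and Lgals1. Low lymphocyte markers, low macrophage markers and fewer libraries cannot be told apart in the first of these fits. Over the whole marker lists, 12 of 12 B and plasma cell genes were lower in the knockout, 1 of them called, with a median difference of -1.54, and 14 of 14 T and NK cell genes were lower, none called in limma (8 at an unadjusted p under 0.05), with a median of -1.40.

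Within AngII alone, 5 decay transcripts were called lower in the knockout, where 0.485% of all transcripts were called lower, 0.0789% higher and 0.564% in either direction. They were those of Ifi35 (-1.33 ± 0.237), Map4k1, Lgals1 (-1.81 ± 0.368), Gm21988 (-0.91 ± 0.149) and Spr (-0.51 ± 0.113), all with limma, and 130 had an unadjusted p under 0.05. The groups of 5 did not overlap for Ifi35 or Map4k1. For Lgals1 they did not overlap either, at 9.28 to 47.9 FPKM against 3.88 to 6.80 FPKM. How many of all transcripts were divided in this way was not counted. Limma-voom called no decay transcript here, and none was called without the low-lymphocyte libraries. Leaving out 1 library gave 1 call without wild-type AngII 2 or knockout AngII 1, 2 without wild-type AngII 1 or 4 or knockout AngII 2, 3 without knockout AngII 3 or 5, 9 without knockout saline 3 and 11 without wild-type AngII 3. Under AngII the median of all transcripts was -0.10 and moved to +0.02 after quantile normalization, and that of the decay transcripts was -0.13. Within saline, Nupr1 was the only decay transcript called, where 0.071% of all transcripts were (0.067% lower), and 83 decay transcripts had an unadjusted p under 0.05. Limma-voom, the lymphocyte covariates and leaving out the 5 libraries each ended that call, and the count was 4 without knockout saline 3 and 2 without wild-type saline 5.

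By share of the gene, 3 of 2703 decay transcripts were called between genotypes over both treatments, Ifi35, Map4k1 and Faf2, all lower, where 0.0461% of all transcripts were called (0.023% lower). Faf2 encodes a UBX-domain protein of lipid droplets and the endoplasmic reticulum. Its decay form fell by 1.97 percentage points but averaged 4.10 recovered reads, at 0.141 to 0.559 FPKM in wild type and 0 to 0.0725 FPKM in the knockout, and 15 of the 20 fits that leave out 1 library ended its call. The Faf2 form averaged 1.12% of its gene, so it passed the filter of 1% through wild type. Under AngII the Map4k1 share alone was called (background 0.0138%), and under saline none was (background 0.00461%), with 195 and 152 decay transcripts at an unadjusted p under 0.05 in limma.

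For AngII, calls were nearly absent among decay transcripts, as they were among all transcripts. In wild type limma called none by level (background 0.0%), with 44 at an unadjusted p under 0.05 and none in limma-voom. In the knockout Nupr1 was called, +3.76 ± 0.434 (adjusted p = 0.00178), where 0.00394% of all transcripts were called, namely this one, and 60 decay transcripts had an unadjusted p under 0.05. Averaged over genotypes, Nupr1 was again the only one of all transcripts called (0.00394%), with a difference of +2.14 (adjusted p = 0.039) and 53 decay transcripts at an unadjusted p under 0.05, and limma-voom did not call it in either comparison. The averaged call was lost in 22 of 31 alternatives, among them 16 of the 20 that leave out 1 library. The difference of differences called none by level (background 0.0%, 47 at an unadjusted p under 0.05, none in limma-voom) and none by share (background 0.0023%, 114 at an unadjusted p under 0.05). So the AngII responses of the genotypes were not shown to differ for any decay transcript, Nupr1 and Map4k1 included. These comparisons share libraries: knockout saline stands in the saline comparison of genotypes and in the AngII comparison of the knockout, and Nupr1 was at 0 in 4 of its 5 libraries.

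By share, Map4k1 was the only decay transcript called for AngII in wild type, +28.5 percentage points (limma, adjusted p = 0.0291), a call lost in 20 of 31 alternatives, where 0.00921% of all transcripts were called (0.00691% higher). The mean share with which Map4k1 met the filter came mostly from wild-type AngII, the group called high here, so the test is not free of that filter. In the knockout none was called (background 0.0%, 131 decay transcripts at an unadjusted p under 0.05), nor over both genotypes (background 0.0023%, 102 at an unadjusted p under 0.05).

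Decay transcripts of smallest p for AngII that missed the threshold included Phf7, a chromatin reader best known from the germ line. Its share was 0 in all 10 saline libraries, 35.9, 5.6, 31.4, 42.6 and 40.9% in wild-type AngII and 18.7, 0, 0, 0 and 14.5% in knockout AngII. The difference over genotypes was +19 ± 3.81 percentage points (limma, adjusted p = 0.618). The Phf7 form passed the filter on share through AngII libraries alone, so this p is not independent of that filter. Prmt9, an arginine methyltransferase of a splicing factor, had shares of 83.6, 76.8, 79.6, 80.3 and 41.4% in wild-type saline and 0, 0, 0, 53.3 and 0% in wild-type AngII. Its knockout saline shares were 0, 0, 82.6, 82.8 and 0% and its knockout AngII shares 77.1, 79.3, 43.7, 60.3 and 80.2%. The difference of differences was +96.7 ± 24.1 points (limma, adjusted p = 0.966). Ggct, an enzyme of glutathione breakdown, was at 0.592, 0.456, 0.189, 0.150 and 0.580 FPKM in wild-type saline and 1.80, 1.48, 1.32, 0.537 and 1.36 FPKM in wild-type AngII, +0.71 ± 0.175 (limma, adjusted p = 0.863). Of those groups, only wild-type AngII had libraries at the 1 FPKM of the filter. Scamp4, a secretory carrier membrane protein, had the smallest p by share in the knockout, -10.2 ± 2.16 points (limma, adjusted p = 0.643), but all its bases also lie in Adat3 or Gm49322.

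**Figure D5:**
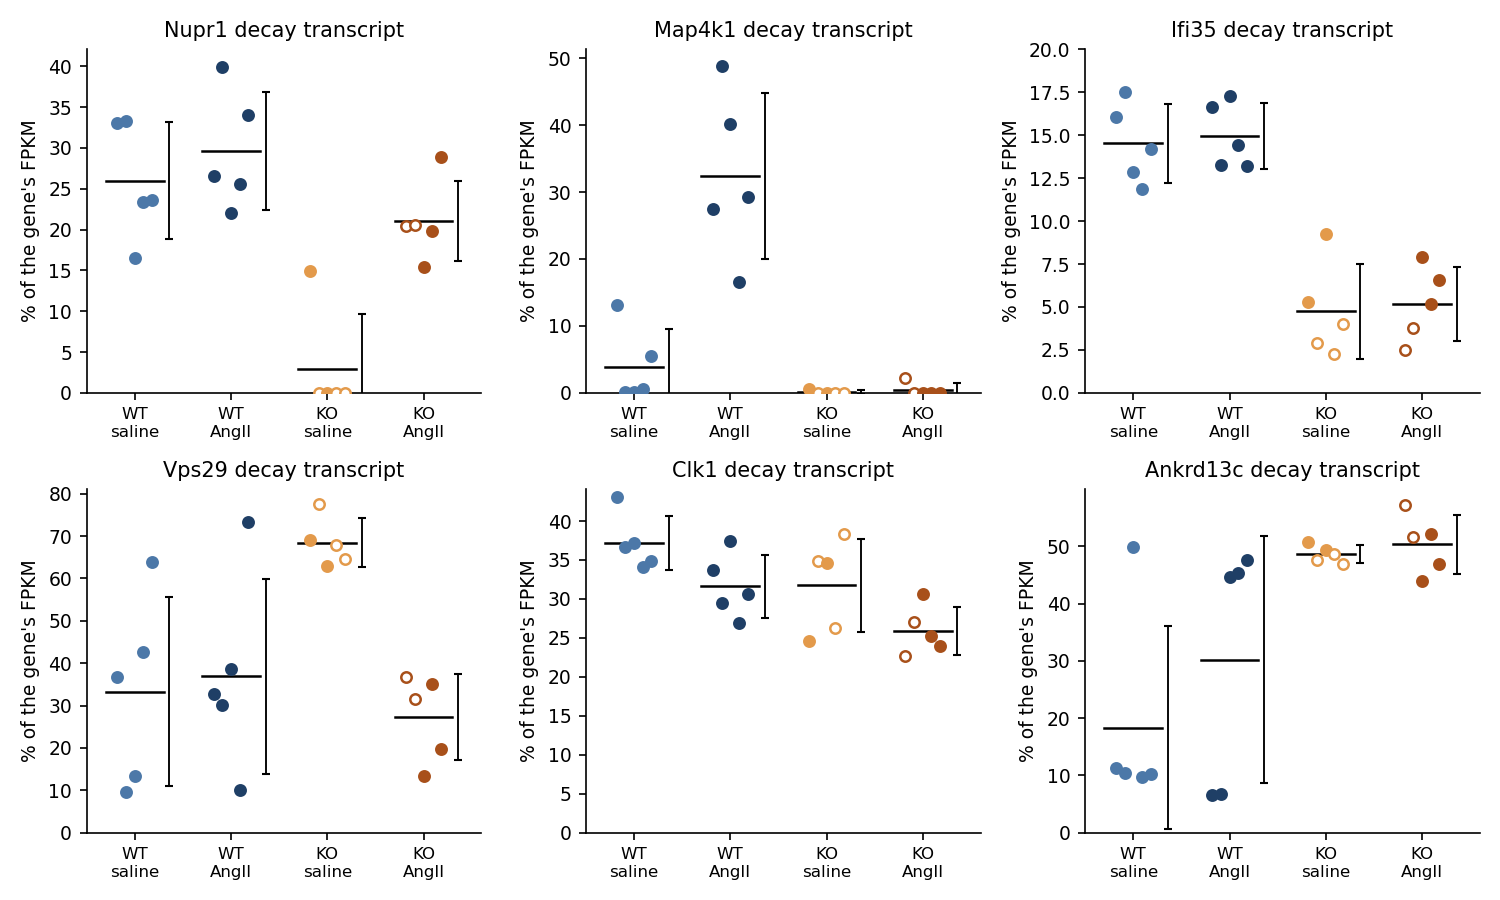
Percent of the gene's summed FPKM on the decay transcript of Nupr1, Map4k1, Ifi35, Vps29, Clk1 and Ankrd13c, one point per library, with means as lines and SDs as bars; open circles are the 5 knockout libraries lowest in B cell markers. The Nupr1 share is 0 in 4 of 5 knockout saline libraries, and that of Map4k1 is above 16% in wild-type AngII alone.

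Vps29 belongs to the retromer, the coat that returns receptors from endosomes, and its decay form averaged 41.5% of the gene. Its share was 36.7, 9.71, 13.5, 42.5 and 64.0% in wild-type saline and 32.7, 30.1, 38.5, 10.1 and 73.3% in wild-type AngII. It was 69.2, 77.7, 63.0, 67.9 and 64.5% in knockout saline and 36.7, 31.6, 13.3, 35.1 and 19.8% in knockout AngII. The knockout groups did not overlap and the wild-type groups did. The difference with AngII in the knockout was -41.1 ± 10.5 points (limma, adjusted p = 0.976) and the level differed by -1.88 ± 0.517 on the log2 scale (adjusted p = 0.747), so neither was called.

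Splicing regulators, the class for which decay forms are best known, had 105 decay transcripts in the tables from 65 listed genes, and 44 passed the filter. Between genotypes 12 were higher and 32 lower, with a median of -0.20, and Clk1, Ddx5, Hnrnpdl and Snrpb were called lower. Of all transcripts tested 61.0% were lower, with a median of -0.08, and 2.24% were called lower. After quantile normalization the counts were 16 and 28, with 3 called, and after scaling to annotated non-mitochondrial FPKM 13 and 31, with 1 called. None of their 64 tested shares was called in limma, with 6 at an unadjusted p under 0.05. At the level of the gene, 2 of 65 were called higher and 8 lower, where 0.953% of all genes were called higher and 3.2% lower, Clk1, Hnrnpdl and Snrpb among the latter. Qk, an RNA-binding regulator of smooth muscle splicing, was called higher as a gene (+0.41, limma, adjusted p = 0.00936). Its decay form held 47.2 to 67.0% of it and differed by +0.37 ± 0.127 (adjusted p = 0.132). Hnrnpa1, a general splicing repressor, had its decay form at 40.9, 23.7, 41.1, 33.7 and 24.5 FPKM in wild-type saline and 15.3, 19.2, 28.1, 9.33 and 15.1 FPKM in wild-type AngII. It was at 27.0, 12.8, 29.1, 17.6 and 4.19 FPKM in knockout saline and 4.08, 2.47, 15.1, 7.30 and 17.3 FPKM in knockout AngII. The Hnrnpa1 difference between genotypes, -1.03 ± 0.339, was not called (limma, adjusted p = 0.112). Rbm3, a cold-inducible RNA-binding protein, was at 0 in knockout saline 2 and 4 and at 16.9 to 50 FPKM elsewhere. The mean level of the splicing regulator genes was 3.92 to 4.58 in wild type, 3.83 to 3.98 in the 5 low-lymphocyte libraries and 4.13 to 4.60 in the other knockout libraries.

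Ribosomal protein genes had 20 decay transcripts, 14 of them tested. All 14 were lower in the knockout with a median of -0.48, against -0.08 over all transcripts, and limma called none, with 7 at an unadjusted p under 0.05 and none called in limma-voom. Under AngII all 14 were again lower, with a median of -0.81, and in both comparisons all 14 stayed lower after quantile normalization and after scaling (medians of -0.39 and -0.38 over both treatments). The Rpsa form was at 69.5, 71.7, 77.6, 102 and 69.2 FPKM in wild-type saline and 89.2, 113, 83.7, 77.9 and 119 FPKM in wild-type AngII. Its knockout saline values were 69.4, 37.1, 103, 37.2 and 25.9 FPKM and its knockout AngII values 2.85, 33.8, 37.1, 59.8 and 36.2 FPKM, so that the AngII groups did not overlap. The genotype difference was -1.28 ± 0.378 for Rpsa (limma, adjusted p = 0.0753). Of the 86 ribosomal protein genes tested, 9 were called lower and none higher, against 3.2% and 0.953% of all genes, with a median of -0.44. Their mean level was 7.09 to 7.89 in wild type, 6.61 to 6.69 in the 5 low-lymphocyte libraries and 6.83 to 7.81 in the other knockout libraries.

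Oxidative phosphorylation genes had 21 decay transcripts, with 9 of the 10 tested lower in the knockout, a median of -0.43 and none called in limma (4 at an unadjusted p under 0.05, none called in limma-voom), and 9 lower under each scaling. Ndufs6, Ndufs4 and Ndufb8, subunits of complex I, differed by -0.45, -0.41 and -0.31 (limma, adjusted p = 0.33, 0.328 and 0.631), and the Ndufa10 form was at 0 in 12 libraries. Of 97 genes of the list 4 were called lower and none higher, near the 3.2% of all genes called lower.

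Contractile genes had 13 decay transcripts and 5 were tested, 4 of them lower in the knockout and none called in limma (2 at an unadjusted p under 0.05, none called in limma-voom). One form of Ilk, the integrin-linked kinase, had a difference of -1.24 ± 0.334 (limma, adjusted p = 0.0544), but all its bases overlap Taf10 on the other strand and the library kit is not stated to mark strand. Of the extracellular matrix, only the forms of Eln and Fn1 passed the filter, out of 4. The elastin form differed by +0.87 ± 0.264 with AngII over both genotypes (limma, adjusted p = 0.813) where the gene differed by +1.27 (adjusted p = 0.323), and neither was called. Of endosomal genes, 12 decay transcripts were in the tables and Micall1, Vps29 and Snx17 passed the filter. The share of the Snx17 form, a sorting nexin of receptor recycling, moved between 0.754 and 43.1%.

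Few genes of the decay machinery itself were called. Decay factors had 14 of 16 listed genes tested, 8 higher and 6 lower in the knockout over both treatments, with a median of 0.04, against -0.07 over all genes, and none called in limma (3 at an unadjusted p under 0.05). Under AngII 1 was called, Upf3a, the UPF3 paralogue with weak decay activity, where 1.83% of all genes were called (0.0133% under saline). Its summed FPKM averaged 15.7 ± 1.21, 18.5 ± 2.06, 14.8 ± 1.69 and 13.5 ± 1.81 in the 4 groups (SD, n = 5 each). The fall under AngII was by 0.43 ± 0.108 on the log2 scale (limma, adjusted p = 0.048), and leaving out a library ended the call in 15 of 20 cases. Smg9, a partner of SMG1, differed by -0.28 ± 0.129 over both treatments (adjusted p = 0.239). All 9 exon junction complex genes were tested, with 8 lower and 1 higher, a median of -0.23 and none called in limma (3 at an unadjusted p under 0.05). Rbm8a (Y14), one of the core subunits, came nearest at -0.30 (adjusted p = 0.055), followed by Eif4a3, the RNA-clamping helicase of the complex, at -0.30 (adjusted p = 0.184). The mean level of exon junction complex genes was 3.98 to 4.42 in wild type, 3.81 to 3.87 in the low-lymphocyte libraries and 3.98 to 4.52 in the other knockout libraries. For the decay factors it was 2.31 to 2.86, 2.33 to 2.56 and 2.75 to 3.06. Decay factors and exon junction genes had 4 and 3 decay transcripts of their own in the tables, and none reached the filter on level.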

How the data were processed

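Total RNA of abdominal aorta was depleted of ribosomal RNA and sequenced, per the labels' protocols. The authors deposited 1 table of FPKM per transcript model for each library. The unit is taken from the values: recovered reads are whole to within 0.1 for 99.4% of low values. mm10 and limma are named in the submitters' processing notes; no source used here names the aligner or the counting tool. Of 126719 models, 110082 carry Ensembl names, 109913 matched GENCODE M21, and 16637 are unannotated (10.6 to 12.9% of FPKM). The sequences and transcript types come from that annotation and mm10.

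Log2(FPKM + 1) and percent share were fitted with limma 3.58.1 (R 4.3.3, trend and robust empirical Bayes) on the 4 groups, with Benjamini-Hochberg adjustment over all transcripts or genes tested, and calls at an adjusted p under 0.05. Filters were 1 FPKM in 5 libraries, or a gene mean of 2 FPKM and a mean share of 1%. Fold changes on this scale understate those of low transcripts. Groups without overlap were not counted over all transcripts, so no background stands beside such a division. Library measures used exact permutation tests in Python 3.11.15 with scipy 1.17.1. The fits were tested on simulated data, drawn as independent normal values. These held no listed zeros, jumps or differences shared between transcripts of a library, so that test does not cover them.

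Transcripts are named by rule: the 8 highest means, the 4 highest of each gene list, called ones by smallest p up to 6 a comparison (or the 2 of smallest p), and the 6 highest shares, passing over predicted loci except among the called ones. Some transcripts that the rule names are not reported here. Members, lists and tests were chosen with earlier results of these data known. Alternatives included limma-voom on recovered reads, other scalings, filters and pseudocounts, a replicate block and each library left out. Lymphocyte covariates and leaving out 5 knockout libraries were added after seeing the data.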

Additional observations from a re-analysis of the deposited data

Results flagged for a closer look

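In 9 of the 76 groups of 5 libraries examined, 1 library stood apart from the other 4, with a gap to its nearest neighbour above 0.71 of the group's range; chance alone gives about 1 in 20. Wild-type AngII 5 had 808 decay transcripts at 1 FPKM or more, the next library 742. Wild-type AngII 3 had 10.3% of host gene FPKM on retained_intron transcripts, the next 8.46%. In wild-type saline 5 the log2 ratio of decay to retained_intron transcripts was -0.0196, with the nearest at -0.256. In wild-type AngII 1 the log2 ratio of decay to processed_transcript transcripts was 2.25, with the nearest at 2.44. The Map4k1 form was at 1.99 FPKM in wild-type saline 1 (next 0.202) and at 0.246 FPKM in knockout saline 1 (next 0.00964). The Nupr1 form was at 3.85 FPKM in knockout saline 1 and at 0 in the other 4. The Clk1 form was at 11.6 FPKM in knockout saline 3 (next 6.06), and the Rbmx form at 7.06 FPKM in wild-type AngII 5 (next 5.31).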

How the results depend on the processing

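Replicate numbers did not pair the libraries: 6 of 30 same-number pairs correlated above 0.1 (-0.291 to 0.241), and 3 of 20 libraries were closest to their own number. With the replicate number as a block, limma called 1 decay transcript by level for genotype under AngII in place of 5 and 13 over both treatments in place of 17. By share the block gave 0 in place of 1 for AngII in wild type and 1 in place of 3 for genotype over both treatments, and Upf3a was lost, leaving 0 decay factors under AngII.

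For genotype over both treatments the count by level was 6 without the 5 knockout libraries low in lymphocyte markers, 11 in limma-voom, 11 at a minimum of 5 FPKM and 9 after scaling to annotated non-mitochondrial FPKM. Under AngII the 5 calls became 0 without those libraries, 0 in limma-voom, 9 with lymphocyte covariates, 8 with adipocyte and skeletal muscle covariates and 3 after scaling. Under saline the single call became 0 with lymphocyte covariates or in limma-voom and 2 after quantile normalization or with adipocyte and skeletal muscle covariates. For AngII in the knockout it became 0 without the 5 libraries or in limma-voom. For AngII over both genotypes it became 0 without the 5 libraries, with either set of covariates, without a filter, at a pseudocount of 0.1 and in limma-voom, and in wild type 1 was called without a filter.

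By share, AngII in wild type gave 2 calls on the arcsine square root scale and 0 without the 5 libraries, as a log2 ratio to the other transcripts, or with either set of covariates, and the knockout gave 1 without the 5 libraries. Genotype under saline gave 1 by arcsine, by log ratio and in a fit without trend and robust settings. Under AngII it gave 0 without the 5 libraries, by log ratio and with lymphocyte covariates, and 2 without trend and robust settings. Over both treatments it gave 5 by arcsine, 5 at a gene mean of 10 FPKM, 1 without the 5 libraries, 0 with lymphocyte covariates and 1 with adipocyte and skeletal muscle covariates.

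Leaving out each library in turn, counts by level ranged from 10 to 28 for genotype over both treatments, 1 to 11 under AngII, 1 to 4 under saline, 0 to 1 for AngII in wild type, 1 to 2 in the knockout, 0 to 2 over both and 0 to 1 for the difference of differences. By share the ranges were 1 to 3 for genotype over both treatments, 1 to 2 under AngII, 0 to 2 for AngII in wild type and 0 to 1 over both. Decay factors and exon junction genes called ranged from 0 to 1, under AngII and over both treatments. The number of decay transcripts at 1 FPKM or more, at a difference of -59.7 in the knockout, turned to +8.23 without the 5 libraries. The cause of these changes was not tested. Shares of transcripts with few reads are the least certain, and FPKM of transcripts without bases of their own rest on how reads were divided.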

Other observations

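Some decay transcripts had a wide gap in share between sets of libraries, though values on either side of it could spread. By a rule set after values were seen (a gap of at least 20 percentage points in share with at least 4 libraries on each side, in genes averaging at least 5 FPKM), 102 of 1930 decay transcripts (5.28%) qualified, against 1271 of 31622 transcripts of any type (4.02%). The widest gaps were in Pik3c3, the class III phosphatidylinositol kinase of endosomes and autophagy (83.7 points, 4 libraries high), Itgb1, the beta-1 integrin (76.7 points, 5 high), Slc25a22, a mitochondrial glutamate carrier (71.5 points, 7 high), and Khnyn, a cofactor of the antiviral protein ZAP (70.9 points, 14 high). Tmem123 (67.6 points, 16 high) and Tbk1, a kinase of innate immune signalling (64.3 points, 6 high), followed. Prmt9 (41.4 points), Ankrd13c (32.5), Ddx5 (21.8) and Vps29 (20.5), described above, qualified too. Whether such steps lie in the RNA or in how shared reads were divided was not tested.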
